A study of Mus musculus with 24 samples.

Results

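The interleukin-1 (IL-1) family genes described here are 9 of the 56941 genes of a deposited count table. They were chosen by name, as ligands, natural antagonists and receptors, and all 9 were found in the table through their Ensembl IDs. The ligands are Il1a, Il1b and Il18. The antagonists are Il1rn, which encodes the IL-1 receptor antagonist, and Il18bp, which encodes a soluble protein that binds IL-18. The receptor genes are Il1r1, the signalling receptor of IL-1, Il1r2, its decoy receptor, Il1rap, the accessory chain that IL-1 receptors need for signalling, and Il18rap, the accessory chain of the IL-18 receptor. Of the 9 genes, 7 passed the filter on low counts and were tested. Il1r1 and Il1r2 did not pass.

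IL-1 alpha and IL-1 beta act on the same receptor, and the IL-1 receptor antagonist occupies that receptor without starting a signal. IL-1 beta and IL-18 are made as inactive precursors, which caspase-1 cleaves once an inflammasome has formed. In macrophages the lipopolysaccharide (LPS) receptor TLR4 switches on transcription of the Il1b precursor, a step called priming, so RNA measures the priming step and neither cleavage nor release.

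RNA was sequenced from mouse bone marrow-derived macrophages (BMDM), which are bone marrow cells grown into macrophages in medium conditioned by L929 cells. The genotypes were wild type (WT), a Hdac9 knockout (KO), Hdac9 being a class IIa histone deacetylase gene, and a line that lacks a cis-regulatory element of Hdac9 (dCIS). Macrophages of each were left untreated or given 100 ng/ml LPS for 6 h, which makes 6 groups of 4 libraries, 24 in all. All groups were kept without conditioned medium for 24 h and then without serum, whether LPS was added or not. The sources used here give no strain, age or sex of the mice. Nor do they state whether the 4 libraries of a group stem from different mice or dishes, so the p-values measure library spread, which may be technical.

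The stretches of 250 bases before the transcription start of 4 members that LPS raised in every genotype are shown because they hold matches to TTNNGNAA, a short form of the site that C/EBP proteins bind. Cebpb, which encodes one of these proteins, was called lower in untreated KO than in WT, as described further on. That call held in 3 of 8 fits with 1 library left out. None of the 4 members was called there (log2 0.16 for Il1a, 0.00 for Il1b, 0.15 for Il1rn and 0.24 for Il18bp). A link between Cebpb and these members was not tested. Each stretch runs 5′ to 3′ on the gene's strand, from RefSeq on build GRCm38.p6, which is not the build of the counts. Capitals mark TTNNGNAA on either strand. Il1a is at chr2:129309973-129310222 on the minus strand, Il1b at chr2:129371140-129371389 on the minus strand, Il1rn (the second of its 3 listed starts) at chr2:24345041-24345290 on the plus strand, and Il18bp at chr7:102018233-102018482 on the minus strand.
Il1a: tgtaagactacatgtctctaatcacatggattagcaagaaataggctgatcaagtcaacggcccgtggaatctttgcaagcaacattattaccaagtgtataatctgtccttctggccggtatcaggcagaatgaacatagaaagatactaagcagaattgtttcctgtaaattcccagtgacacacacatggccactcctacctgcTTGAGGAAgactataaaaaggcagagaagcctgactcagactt
Il1b: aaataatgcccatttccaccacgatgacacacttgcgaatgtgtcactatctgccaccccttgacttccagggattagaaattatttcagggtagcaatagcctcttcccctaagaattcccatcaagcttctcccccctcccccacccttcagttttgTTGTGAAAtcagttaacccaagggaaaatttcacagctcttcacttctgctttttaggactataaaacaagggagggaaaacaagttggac
Il1rn: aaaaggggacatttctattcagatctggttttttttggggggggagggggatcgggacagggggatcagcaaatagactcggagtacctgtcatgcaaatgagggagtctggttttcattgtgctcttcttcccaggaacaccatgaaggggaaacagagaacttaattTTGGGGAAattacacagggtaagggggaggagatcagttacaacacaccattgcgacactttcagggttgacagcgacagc
Il18bp: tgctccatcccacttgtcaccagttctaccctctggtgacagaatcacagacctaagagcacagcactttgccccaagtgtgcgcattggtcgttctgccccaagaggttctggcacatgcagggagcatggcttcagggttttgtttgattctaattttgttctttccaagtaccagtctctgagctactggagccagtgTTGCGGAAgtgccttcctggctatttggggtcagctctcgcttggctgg

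In Il1b the match lay 91 to 84 bases before the start, in Il1a 43 to 36, in Il1rn 81 to 74 and in Il18bp 49 to 42. The Il1a match overlapped AGGAAG, the core bound by PU.1, at bases 40 to 35 before the start. These short words are common: among 32851 mouse windows from 250 bases before to 50 after a start, searched on both strands, 40.7% held TTNNGNAA and 35.4% held AGGAAG. The NF-kB consensus, present in 8.46% of the windows, was found in 1 of the 2 Il1r1 windows and in no window of the other 8 genes. The core of interferon-response elements, 2 runs of GAAA with 2 bases between them, present in 3.44%, occurred in the Il1rap window alone, 21 to 30 bases after its start. A match is a run of letters and not a measured binding site, and enhancers farther away were not searched. Il18rap, which LPS also raised in every genotype, holds a TTNNGNAA match 54 to 47 bases before its start and is not printed because its counts were low. Il18 and Il1rap, also raised in every genotype, hold no TTNNGNAA match, nor does the window of the first listed Il1rn start. Both windows of Il1r1, a gene near the detection limit, hold it. The matches thus do not set apart the members that LPS raised.

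Library totals ran from 14636058 to 19181707 counts. Hdac9 was at 9.15 to 12.4 CPM (counts relative to the library size scaled by TMM) in untreated WT, 0.841 to 1.31 in KO and 13.0 to 17.9 in dCIS, and after LPS at 10.4 to 16.5, 0.0898 to 0.464 and 9.89 to 21.2 CPM. In dCIS after LPS, libraries 3 and 4 showed only 17628 and 15997 genes with a count, each other library at least 20458, and the dCIS values after LPS that lead the results are also given without them. The 8 macrophage markers summed to 15529 to 26704 CPM. The 9 neutrophil markers reached 4.67 CPM at most, with 8 of 9 under 1 CPM in every group, the 6 dendritic cell markers 5.03, the 9 T, B and NK cell markers 0.777, and the 6 mast cell and basophil markers 0.334 CPM. The 8 fibroblast and endothelium markers moved with LPS, from 2.88 to 5.79 CPM untreated to 41.1 to 69.1 CPM. Most of that was Kdr, at 38.0 CPM in WT after LPS, while 5 of the 8 stayed under 1 CPM in each group after LPS. Their part in the LPS results was not tested.

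LPS raised every member that could be tested, in each genotype. In edgeR's quasi-likelihood test with Benjamini-Hochberg adjustment over all 14757 genes tested, 7 of 7 members were called higher (adjusted p under 0.05) in WT, where 30.4% of all genes were. The same held for 7 of 7 in KO, against 30.9%, and 7 of 7 in dCIS, against 31.3%. The median log2 fold change of the 7 members was 4.22 in WT, 3.93 in KO and 3.90 in dCIS, and that of all genes tested 0.00, 0.02 and -0.05. TMM scaling centres most genes near 0, so it largely set the medians of all genes. For each of the 7 genes every LPS library lay above every untreated library of its genotype. In bulk RNA, more cells expressing a gene and more RNA per cell cannot be told apart.

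**Figure D1:**
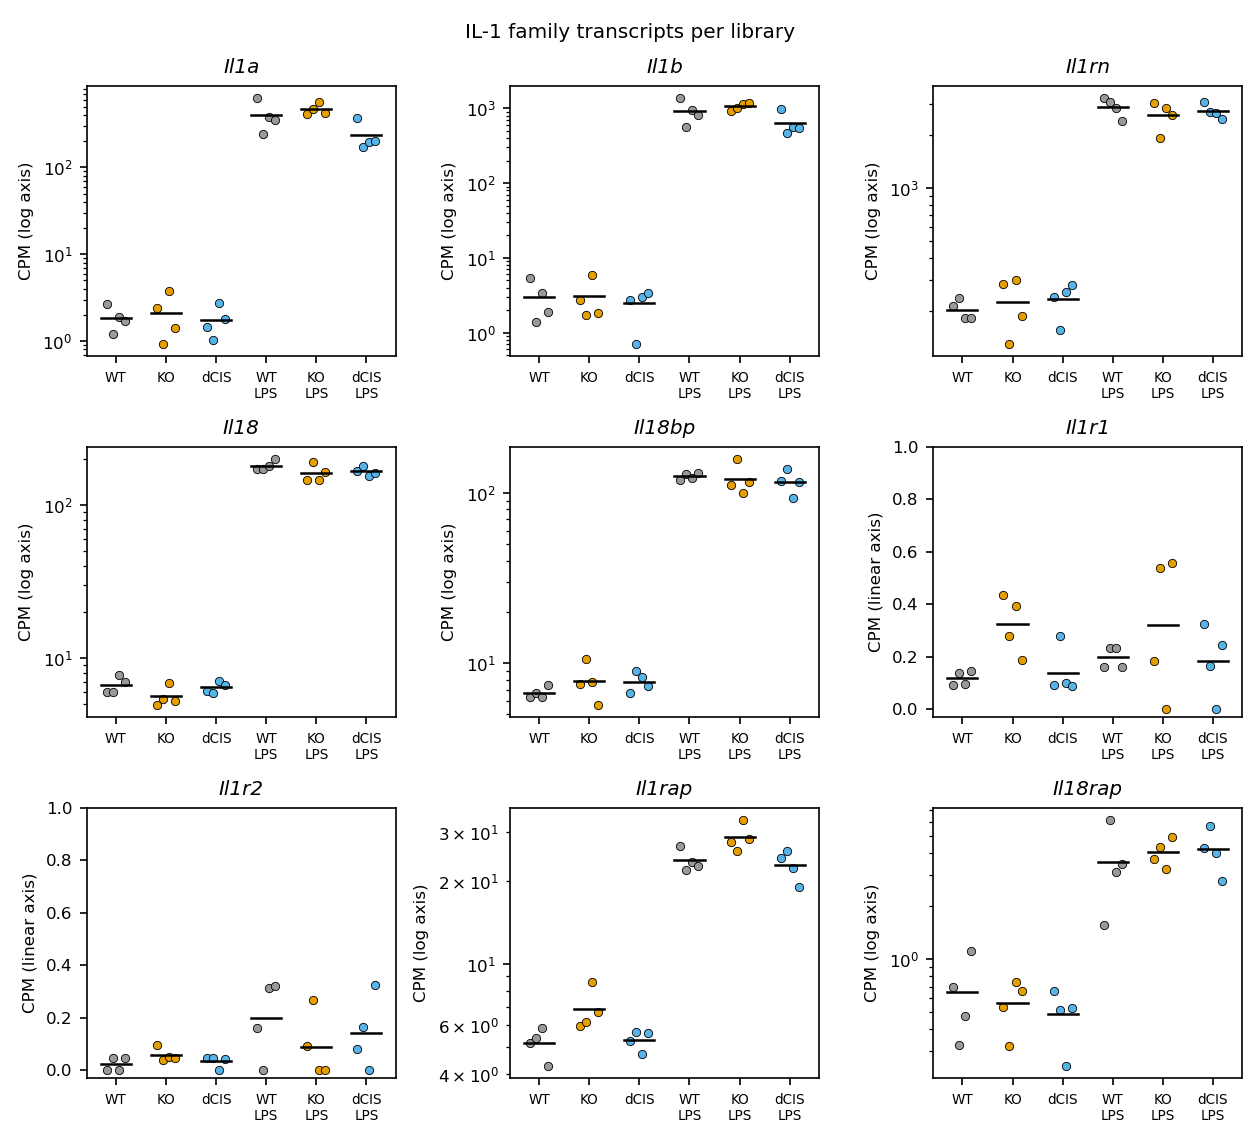
Level of each of the 9 genes in CPM by group (points, libraries 1 to 4 from left to right; line, mean of the 4 libraries), on log axes except for Il1r1 and Il1r2, which are on a linear axis. The 7 tested genes stand higher after LPS in all genotypes, and Il1r1 and Il1r2 stay under 0.6 CPM throughout.

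Il1b had the largest fold change of the family. Its untreated levels were 5.34, 1.40, 3.34 and 1.89 CPM in WT libraries 1 to 4, 2.71, 1.73, 5.89 and 1.83 CPM in KO, and 2.73, 0.703, 3.02 and 3.37 CPM in dCIS. After LPS they were 1363, 561, 941 and 819 CPM in WT, 912, 1025, 1131 and 1168 CPM in KO, and 966, 469, 563 and 541 CPM in dCIS. Untreated libraries thus held a trace of Il1b RNA, and the 4 KO libraries after LPS lay closer together than those of WT or dCIS. The log2 fold change was 8.26 in WT (SE 0.455, 307-fold, adjusted p 1.14e-14), 8.46 in KO (SE 0.458, adjusted p 8.01e-15) and 8.01 for dCIS (SE 0.454, adjusted p 2.16e-14). Without libraries 3 and 4 of dCIS after LPS, the dCIS value was 8.18. Il1bos, an antisense gene whose exons overlap Il1b on the opposite strand, had at most 19 counts in a library, against at least 5710 for Il1b after LPS.

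Il1a encodes the alpha form, whose precursor is already active when damaged cells spill it. Untreated WT libraries held 2.65, 1.21, 1.91 and 1.70 CPM, KO libraries 2.42, 0.924, 3.76 and 1.41 CPM, and dCIS libraries 1.46, 1.03, 2.73 and 1.77 CPM. With LPS these became 626, 243, 379 and 348 CPM in WT, 415, 477, 568 and 425 CPM in KO, and 372, 174, 195 and 202 CPM in dCIS. Library 1 of dCIS stood well above its other 3 libraries, which were lower than any library of WT or KO. Il1a rose by 7.73 on the log2 scale in WT (SE 0.387, 213-fold, adjusted p 1.55e-15), 7.81 in KO (SE 0.386, adjusted p 1.17e-15) and 7.07 for dCIS (SE 0.381, adjusted p 7.27e-15). The dCIS value was 7.29 without its LPS libraries 3 and 4. Gm14023, which overlaps Il1a on the opposite strand, had at most 12 counts.

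The extremes of these ligands often fell in the same library. In WT library 1 was the highest and library 2 the lowest for both genes, untreated and after LPS alike. In dCIS library 2 was the lowest for both genes in both conditions, and library 1 the highest after LPS. In KO library 3 was the highest for both genes untreated and library 2 the lowest, while after LPS library 1 was the lowest for both. The highest library differed between the genes in untreated dCIS and in KO after LPS, where it was 3 for Il1a and 4 for Il1b in both.

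Il18 varied less between libraries than Il1a and Il1b. Untreated levels were 5.99, 6.01, 7.81 and 6.98 CPM in WT, 4.94, 5.43, 6.93 and 5.26 CPM in KO, and 6.11, 5.95, 7.04 and 6.70 CPM in dCIS. After LPS they were 173, 171, 179 and 199 CPM in WT, 145, 193, 147 and 165 CPM in KO, and 168, 180, 154 and 163 CPM in dCIS. Within each condition the 3 genotypes overlapped. Il18 rose by 4.75 on the log2 scale in WT (SE 0.125, 27.0-fold, adjusted p 8.3e-21), 4.85 in KO (SE 0.126, adjusted p 6.93e-21) and 4.69 for dCIS (SE 0.125, adjusted p 1.11e-20).

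The antagonists rose as well, from a very different start. Il1rn was already abundant, at 215, 237, 184 and 183 CPM in untreated WT, 287, 131, 300.3 and 188 CPM in KO, and 241, 157, 259 and 281 CPM in dCIS. After LPS it reached 3217, 3054, 2839 and 2382 CPM in WT, 3016, 1913, 2847 and 2579 CPM in KO, and 3073, 2685, 2644 and 2442 CPM in dCIS. KO library 2 was the lowest of all 12 libraries in either condition. The log2 fold change was 3.81 in WT (SE 0.224, 14.0-fold, adjusted p 4.27e-14), 3.51 in KO (SE 0.221, adjusted p 1.77e-13) and 3.53 for dCIS (SE 0.221, adjusted p 1.63e-13).

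Il18bp, whose product keeps IL-18 from its receptor, was at 6.36, 6.66, 6.34 and 7.46 CPM in untreated WT, 7.55, 10.6, 7.77 and 5.68 CPM in KO, and 6.68, 8.95, 8.28 and 7.32 CPM in dCIS. After LPS it was at 119, 128, 122 and 131 CPM in WT, 111, 157, 100.1 and 116 CPM in KO, and 118, 137, 93.7 and 116 CPM in dCIS. The 4 WT libraries were close together, and the KO libraries spread both above and below them. Il18bp rose by 4.22 on the log2 scale in WT (SE 0.166, 18.6-fold, adjusted p 1.06e-17), 3.93 in KO (SE 0.163, adjusted p 3.32e-17) and 3.90 for dCIS (SE 0.164, adjusted p 3.96e-17). Its exons overlap those of Numa1 on the opposite strand, and the sources used here do not say whether counting used strand, so reads in the overlap cannot be told apart. Numa1 averaged 116 CPM in untreated WT and 81.3 CPM after LPS, the opposite direction to Il18bp.

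The counts of antagonist and ligand can be set against each other within a library. These ratios are not corrected for transcript length, so they compare libraries and do not say which RNA was more abundant. The ratio of Il1rn to Il1b counts was 40.3, 169.9, 55.1 and 96.9 in untreated WT, 105.9, 75.6, 51.0 and 102.7 for KO and 88.3, 223.5, 85.5 and 83.3 for dCIS. After LPS it was 2.36, 5.45, 3.02 and 2.91 in WT, 3.31, 1.87, 2.52 and 2.21 for KO and 3.18, 5.72, 4.69 and 4.52 for dCIS. No LPS library came near an untreated one. The mean log2 ratio, with 0.5 added to each count, was lower after LPS by 4.56 in WT (6.27 ± 0.908 untreated, 1.70 ± 0.518 after LPS, SD, n = 4). In KO it was lower by 5.04 and in dCIS by 4.60.

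The ratio of Il18bp to Il18 counts differed less between conditions, from 0.811 to 1.11 in untreated WT to 0.656 to 0.749 after LPS. In KO it went from 1.08 to 1.95 untreated to 0.681 to 0.817, and in dCIS from 1.09 to 1.504 untreated to 0.607 to 0.765. The mean log2 ratio was lower after LPS by 0.54 in WT, 0.90 in KO and 0.79 in dCIS. For both ratios and all genotypes the exact 2-sided permutation p was 0.0286, the smallest that 4 against 4 libraries allow, and 0.1 after Benjamini-Hochberg adjustment over 21 ratio comparisons. None of these ratio differences therefore passed the adjustment, although the groups did not overlap. As no other ratio comparison reached that smallest p, no size of change could have brought them under 0.05. The adjusted test thus could not decide on these differences. In KO and in dCIS against WT all ratio groups overlapped, with adjusted p of 0.171 or more. The closest was Il18bp to Il18 in untreated KO against WT (0.45 on the log2 scale, exact p 0.0571). Numa1, whose exons overlap those of Il18bp, averaged 143 CPM in untreated KO and 116 CPM in untreated WT, with overlap of the groups. Whether its reads entered this ratio was not tested. KO against dCIS was not tested for the ratios.

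**Figure D2:**
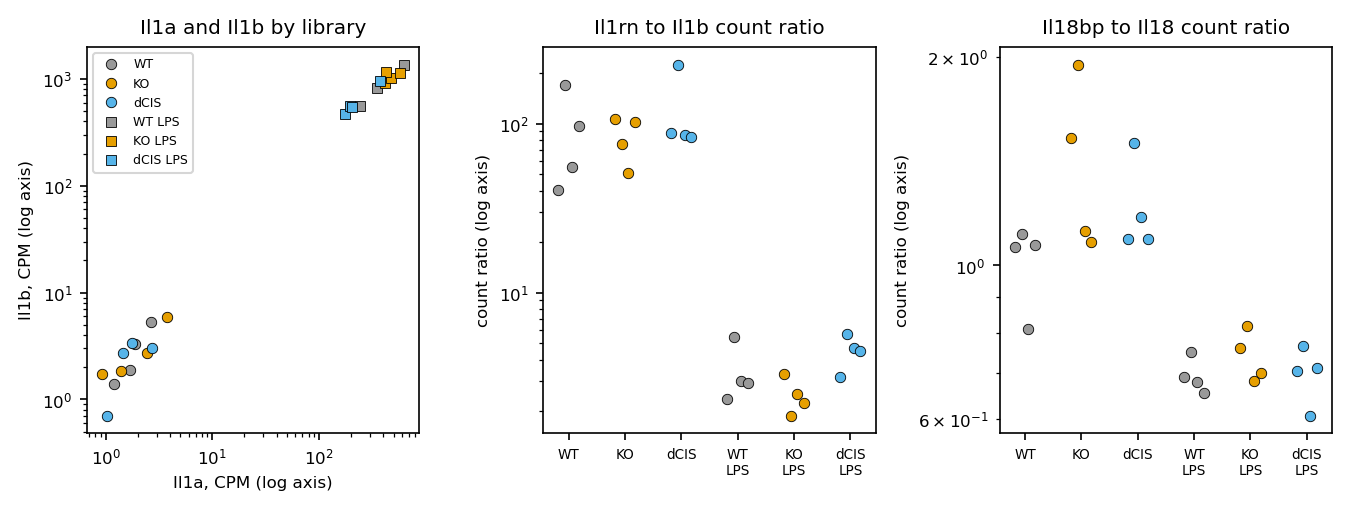
Left, Il1b against Il1a in CPM (log axes), 1 point per library; middle and right, the ratios of Il1rn to Il1b and of Il18bp to Il18 counts by group (log axes, libraries 1 to 4 from left to right). In WT library 1 is the highest and library 2 the lowest for both Il1a and Il1b, and every LPS library has a lower ratio than every untreated library of its genotype.

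Of the receptor genes, Il1rap and Il18rap were measurable. Il1rap was at 5.15, 5.40, 5.86 and 4.26 CPM in untreated WT, 5.96, 6.15, 8.61 and 6.71 CPM in KO, and 5.27, 5.67, 4.71 and 5.63 CPM in dCIS. After LPS it was at 26.8, 21.9, 23.4 and 22.6 CPM in WT, 27.5, 25.7, 33.1 and 28.4 CPM in KO, and 24.2, 25.6, 22.2 and 19.0 CPM in dCIS. Each untreated KO library lay above each untreated WT and dCIS library. Il1rap rose by 2.19 on the log2 scale in WT (SE 0.136, 4.57-fold, adjusted p 1.36e-13), 2.07 in KO (SE 0.133, adjusted p 3.06e-13) and 2.09 for dCIS (SE 0.136, adjusted p 3.47e-13).

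Il18rap stayed low, with 5 to 79 counts in a library. It was at 0.697, 0.326, 0.476 and 1.11 CPM in untreated WT and at 1.55, 6.13, 3.14 and 3.48 CPM after LPS. WT library 1 after LPS was the lowest and library 2 the highest of the 12 LPS libraries. In KO it went from 0.322 to 0.742 CPM untreated to 3.26 to 4.94 CPM, and in dCIS from 0.248 to 0.658 to 2.78 to 5.67 CPM. Il18rap rose by 2.45 on the log2 scale in WT (SE 0.376, adjusted p 2.88e-06), 2.85 in KO (SE 0.382, adjusted p 3.41e-07) and 3.08 for dCIS (SE 0.387, adjusted p 1.17e-07). Il18r1, the chain of the IL-18 receptor that binds the ligand, did not pass the filter.

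The receptors that bind IL-1 itself were close to the detection limit. Il1r1 had 2, 3, 2 and 3 counts in untreated WT, 9, 7, 8 and 4 for KO and 2, 6, 2 and 2 for dCIS. After LPS it had 2, 3, 3 and 2 counts in WT, 2, 6, 0 and 7 for KO and 4, 2, 0 and 3 for dCIS. The untreated KO libraries were above each WT library, by a few counts, and after LPS the genotypes overlapped. In CPM each WT library after LPS was above each untreated WT library, at 2 or 3 counts in both. Il1r2 had 0 to 4 counts in every library. Neither receptor was tested, because of these low counts, and their ratio could not be read.

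Levels of different genes can be compared only per length of transcript. The lengths used here join all annotated exons of a gene, which can exceed the transcripts present and so lower its value. In CPM per kb of exon (GENCODE M21 lengths on GRCm38), untreated WT held 37.0 ± 4.77 of Il1rn (SD, n = 4), 6.496 ± 0.849 of Il18, 2.22 of Il18bp, 1.57 ± 0.928 of Il1b, 0.945 ± 0.303 of Il1a, 0.455 of Il1rap and 0.0968 of Il18rap. The ranges of Il18bp and Il1b overlapped, as did those of Il1b and Il1a, while the ranges at each other step of that order did not. After LPS the WT order was Il1rn at 519 ± 65.4 CPM per kb, Il1b at 483 ± 175, Il1a at 202 ± 82.2, Il18 at 175 ± 12.6, Il18bp at 41.3 ± 1.81, Il1rap at 2.08 and Il18rap at 0.530. Il1rn, Il1b, Il1a and Il18 then each overlapped with the next in that order, and the steps below Il18 did not overlap. RNA was captured on oligo-dT beads, and how far reads covered each transcript was not tested.

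Genotype comparisons ask whether loss of Hdac9, or of its regulatory element, changes these genes. KO and dCIS were set against the same WT libraries, so those comparisons share their controls. edgeR called 0 of 7 members in each of the 8 comparisons between genotypes. In untreated KO against WT it called 7.31% of all genes. There 1 member had an unadjusted p under 0.05, and 1 passed in DESeq2. In untreated dCIS against WT it called 0.0542% of all genes, no member had an unadjusted p under 0.05, and 0 passed in DESeq2. In untreated KO against dCIS the share of all genes was 21.3%, 1 member had an unadjusted p under 0.05, and 1 passed in DESeq2.

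After LPS, KO against WT gave calls for 2.74% of all genes by edgeR, with 1 member at an unadjusted p under 0.05, and 0 members passed in DESeq2. For dCIS against WT the share was 0.258%, with 1 member at an unadjusted p under 0.05, and 0 members passed in DESeq2. For KO against dCIS it was 2.18%, with 3 members at an unadjusted p under 0.05, and again 0 passed in DESeq2. The LPS response of KO differed from that of WT in 0.0203% of all genes and that of dCIS in 0%, with no member at an unadjusted p under 0.05 and 0 passing in DESeq2 in both.

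**Figure D3:**
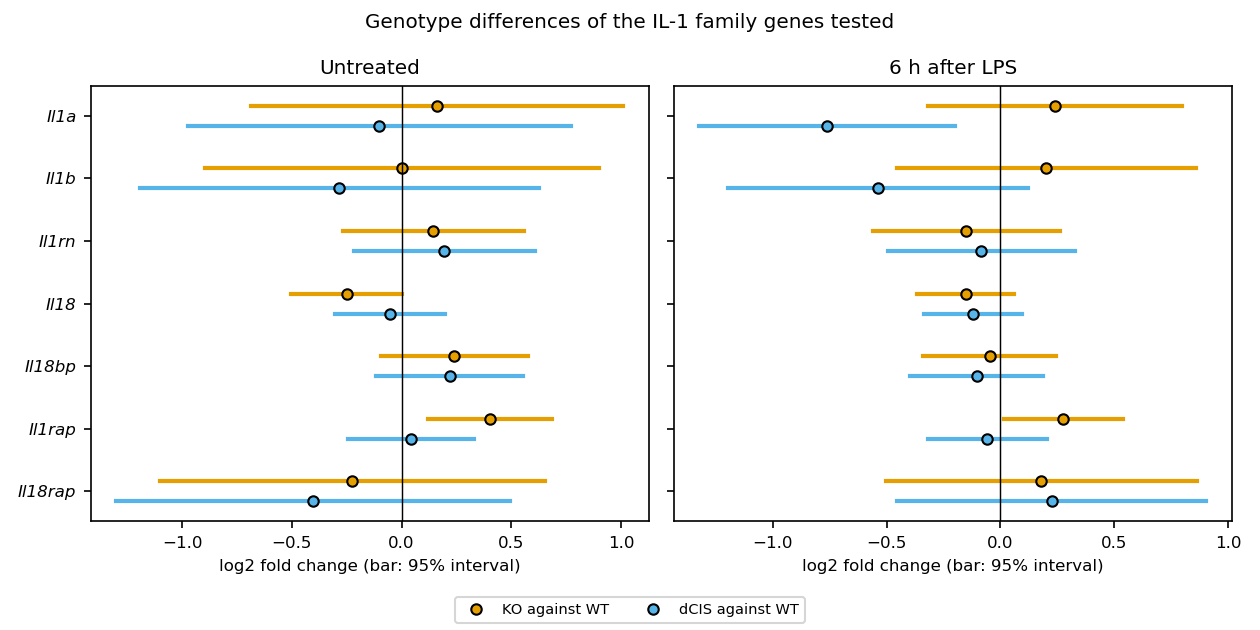
Log2 fold change of the 7 tested genes against WT, for KO and dCIS, untreated (left) and after LPS (right), with 95% intervals of the edgeR fit. Most intervals span 0, and no difference passed the adjustment over all genes; Il1rap in untreated KO and Il1a in dCIS after LPS lie farthest from 0 relative to their intervals.

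Il1a had the smallest adjusted p of any member between genotypes, in KO against dCIS after LPS. It was then at 399 ± 162 CPM in WT, 471 ± 69.9 CPM in KO and 235 ± 91.7 CPM in dCIS. Each KO library lay above each dCIS library, with a log2 difference of 1.00 (SE 0.274, edgeR adjusted p 0.0522). That difference was 1.31 without dCIS library 1 (adjusted p 0.0139) and 0.79 without dCIS libraries 3 and 4 (adjusted p 0.603). Against WT, dCIS was at -0.76 (SE 0.273, adjusted p 0.22) with overlap of the groups, at -0.46 without WT library 1 (adjusted p 0.518) and at -0.55 without dCIS libraries 3 and 4 (adjusted p 0.556). KO against WT was at 0.24 (SE 0.271, adjusted p 0.662).

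Il1b followed Il1a at smaller size. After LPS it was at 921 ± 335 CPM in WT, 1059 ± 115 CPM in KO and 635 ± 224 CPM in dCIS. The log2 difference from WT was 0.20 in KO (SE 0.319, 95% interval -0.46 to 0.86, edgeR adjusted p 0.769) and -0.54 for dCIS (SE 0.320, interval -1.20 to 0.12, adjusted p 0.496), the latter -0.36 without dCIS libraries 3 and 4 (adjusted p 0.769). KO was above dCIS by 0.74 (SE 0.321, interval 0.08 to 1.40, unadjusted p 0.0299, adjusted p 0.197), with overlap of the groups, and by 0.56 without those libraries (adjusted p 0.815). Untreated, the difference of KO from WT was 0.00 (SE 0.437, interval -0.90 to 0.90, adjusted p 0.999). The LPS response of Il1b was 0.20 larger on the log2 scale in KO than in WT (SE 0.538, adjusted p 1) and -0.25 for dCIS (SE 0.549, adjusted p 0.935). The untreated interval allows a difference of 0.90 on the log2 scale either way, so a p above the threshold does not show that the genotypes were alike.

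Il1rap had the next smallest adjusted p, in untreated KO. Its level was 6.86 ± 1.21 CPM in KO, 5.17 ± 0.671 CPM in WT and 5.32 ± 0.445 CPM in dCIS (SD, n = 4). The log2 fold change against WT was 0.40 (SE 0.137, edgeR adjusted p 0.0671), and against dCIS 0.36 (SE 0.137, adjusted p 0.0585), with no overlap of the groups in either. Both differences passed under RLE size factors (adjusted p 0.0363 and 0.0357) and in DESeq2 (0.0173 and 0.0263). Without KO library 3, its highest, the difference from WT was 0.28 (adjusted p 0.236) and that from dCIS 0.24 (adjusted p 0.242). After LPS Il1rap was at 28.7 ± 3.16 CPM in KO and 23.7 ± 2.17 CPM in WT, a log2 difference of 0.28 (SE 0.126, adjusted p 0.207), and at 22.7 ± 2.87 CPM in dCIS.

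Il18, Il1rn and Il18bp had narrower intervals than Il1a and Il1b. Il18 in KO against WT was at -0.25 untreated (interval -0.50 to 0.00, edgeR adjusted p 0.205) and -0.15 after LPS (interval -0.37 to 0.06, adjusted p 0.42). Il1rn in KO against WT was at 0.15 untreated and -0.15 after LPS (adjusted p 0.698 and 0.716). Il18bp was at 0.24 and -0.05 (adjusted p 0.367 and 0.883). In dCIS against WT these 3 genes lay between -0.12 and 0.22 in both conditions. Il18rap, with few counts, had wide intervals, from -1.30 to 0.91 over both genotypes and conditions.

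Other genes of the pathway give the setting. Of 6 further ligand genes 3 were tested, and all 3 were called higher after LPS in each genotype. Of all genes 30.4% were called higher in WT, 30.9% in KO and 31.3% in dCIS. These 3 ligand genes had at most 10 counts in any untreated library. They passed the filter through the LPS groups, so the filter largely set these calls. Il33 had no count in any untreated library and 76 counts over the 4 WT libraries after LPS, at 1.51 ± 0.591 CPM. Il36a averaged 1.60 CPM and Il36g 0.996 CPM in WT after LPS. All were far below Il1a and Il1b in CPM. Of 6 further receptor genes 3 were tested, and all 3 were called lower in each genotype. Of all genes 31% were called lower in WT, 30.7% in KO and 33.3% in dCIS. Il1rl1 and Sigirr had at most 13 and 6 counts in a library after LPS. Both passed the filter through the untreated groups, so the filter largely set their calls too. Il1rl1, the IL-33 receptor, fell from 4.51 to 0.358 CPM in WT (log2 -3.63), Sigirr, an inhibitory receptor of the family, from 1.00 to 0.296 CPM (log2 -1.73), and Il1rl2, the IL-36 receptor, from 2.26 to 1.28 CPM (log2 -0.82).

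Of the 18 genes of signalling below the IL-1 receptors, 11 were called higher and 5 lower after LPS in each genotype. Of all genes 30.4% were called higher and 31% lower in WT, 30.9% and 30.7% for KO, 31.3% and 33.3% for dCIS, so the share called lower was near that of all genes. The list had a median log2 fold change of 0.60 in WT. The smallest p in WT belonged to Peli1 (3.70 on the log2 scale), an E3 ubiquitin ligase gene, to Myd88 and to the kinase genes Irak2 (2.13) and Map3k8 (2.22). The adaptor Myd88, which IL-1 receptors and TLR4 share, rose by 2.67 in WT, 2.65 in KO and 2.65 in dCIS on the log2 scale. Smaller rises in this list can rest on TMM scaling. Ikbkb had 7132 counts over the 4 untreated WT libraries and 6928 after LPS, yet averaged 84.3 and 138 CPM. Peli1 had 2094 and 16159 counts, a rise before any scaling. How far scaling set the calls of this list was not tested.

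Of 16 genes for processing and release of IL-1 family cytokines, 12 were called higher and 3 lower in WT, and 11 and 2 in both KO and dCIS, against the same shares of all genes (30.4% higher and 31% lower in WT). The smallest p in WT belonged to Aim2 (2.60 on the log2 scale), Casp1 (2.55), the protease that cleaves the IL-1 beta and IL-18 precursors, Casp4 (3.76), which senses LPS inside cells, and Nlrp3 (3.39), an inflammasome sensor. Here too smaller rises can rest on TMM scaling. Nek7 had 8079 counts over the untreated WT libraries and 6511 after LPS, at 95.6 and 130 CPM, while Casp1 had 7362 and 25621 counts. Of 8 transcription factors known at the Il1b promoter, 7 were called higher in each genotype, against 30.4% of all genes in WT, and Irf4 was called lower in dCIS. Irf4 had at most 7 counts in a dCIS library after LPS, and 0 in libraries 3 and 4, which showed fewer genes. Its call without those libraries was not examined. Of the 8 factors the smallest p in WT belonged to the interferon regulatory factor gene Irf8 (2.41 on the log2 scale), the NF-kB subunit gene Nfkb1 (2.67), Hif1a (1.74) and the C/EBP factor gene Cebpb (1.70). The median of the factors was 1.72 on the log2 scale in WT.

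**Figure D4:**
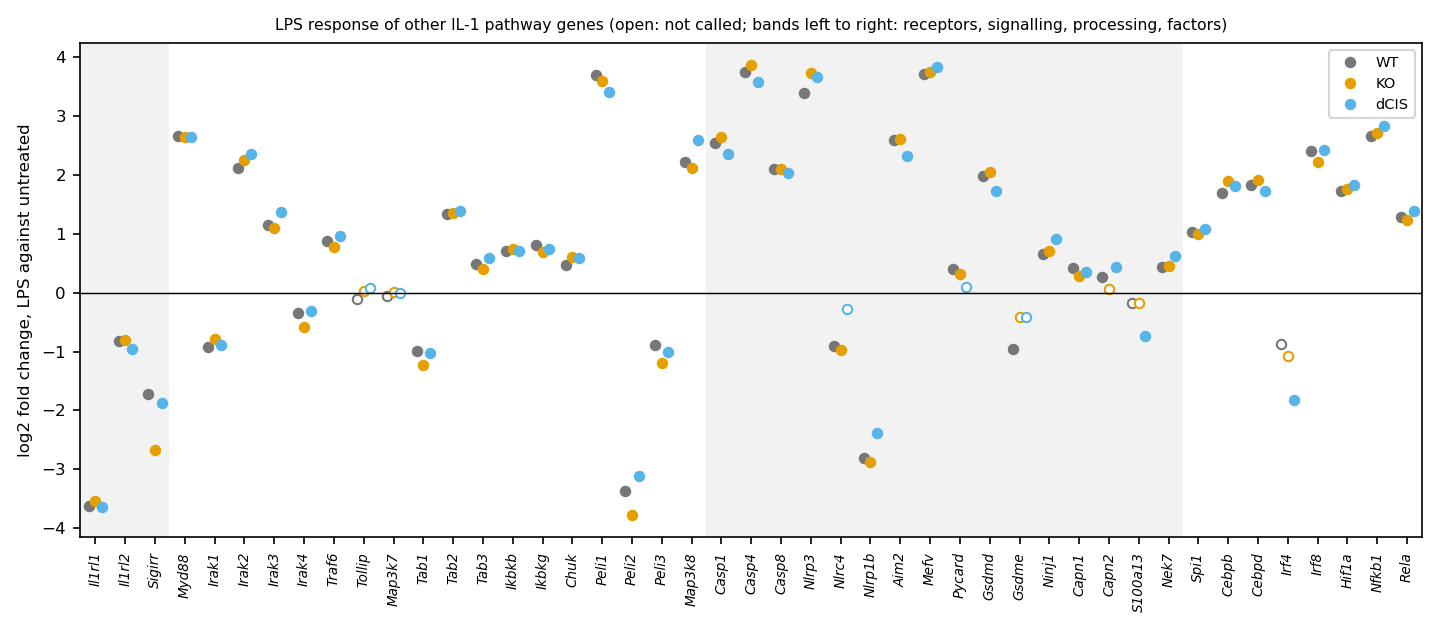
Log2 fold change after LPS against untreated in WT, KO and dCIS for each tested gene of 4 pathway lists (shaded and white bands: receptors, signalling, processing and release, transcription factors; filled, called by edgeR; open, not called). The 3 receptors are lower, and most genes of the other lists are higher, in all genotypes.

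Between genotypes a few of these pathway genes passed the test. In untreated KO against WT, edgeR called 2 of the 48 genes tested in these lists, a smaller share than the 7.31% of all genes called in either direction. Both were lower, as were 337 of all 14757 genes tested, so in that direction the share in these lists was the larger. That share rests on 2 genes, and the direction was taken from their own calls, so it is not read as a result. Cebpb, a C/EBP factor that binds the Il1b promoter, was at 132, 128, 122 and 118 CPM in WT and 90.7, 75.8, 93.5 and 81.3 CPM in KO. The KO libraries were all below the WT libraries, with a log2 difference of -0.55 (SE 0.140, adjusted p 0.0238). S100a13, which takes part in the release of IL-1 alpha, fell by 0.52 (SE 0.143, adjusted p 0.0308). With 1 library left out at a time, Cebpb passed in 3 of 8 fits (adjusted p 0.0304 to 0.0872) and S100a13 in 2 of 8 (0.0215 to 0.114), while DESeq2 called 7 of the 43 to which it gave an adjusted p and the fit of the compared groups alone 6 of 45. None of the 48 was called in dCIS against WT, untreated or after LPS, or in KO against WT after LPS. In these 3 comparisons 2, 4 and 11 of the 48 had an unadjusted p under 0.05, and DESeq2 called 0, 0 and 2. In KO against WT after LPS the compared groups alone gave 6 calls, the replicate block over all groups 2, and no filter and the strict filter 1 each.

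KO against dCIS, untreated, gave 12 calls among the 48, a share near the 21.3% of all genes, and 4 among 45 with the compared groups alone. Higher in KO were the kinase genes Map3k8 (0.71 on the log2 scale) and Map3k7 (0.34), Irak3 (0.51), a brake on IL-1 signalling, Tab2 (0.32), Ikbkg (0.39), Peli3 (0.67), the inflammasome sensor gene Nlrc4 (0.56), the protease gene Capn2 (0.27), Hif1a (0.56) and Nfkb1 (0.40). Lower in KO were S100a13 (-0.80) and Cebpb (-0.61). With 1 library left out at a time, Map3k8, S100a13, Cebpb and Hif1a passed in 8 of 8 fits and the other 8 genes in 1 to 7. After LPS 3 genes passed in KO against dCIS, where 2.18% of all genes did, and 0 with the compared groups alone. Aim2, a DNA sensor of an inflammasome, was higher in KO by 0.34 (adjusted p 0.03) and Hif1a by 0.49 (adjusted p 0.0491), while Cebpb was lower by 0.53 on the log2 scale (-0.53, adjusted p 0.0413). None of the 3 passed without dCIS libraries 3 and 4, where the values were 0.20 for Aim2 (adjusted p 0.592), 0.24 for Hif1a (0.705) and -0.49 for Cebpb (0.319).

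The genes whose levels followed each member most closely over the 24 libraries were found by Pearson's r of log2 CPM, as a description with no test. All 24 libraries share the LPS contrast, which sets most of each r. For both Il1a and Il1b they were Ccl3, a chemokine gene (r 0.996 and 0.995), which was at 165 to 319 CPM untreated and 4004 to 7606 CPM after LPS, and Gch1 (r 0.995 and 0.9945). For Il1rn they were Oasl1 (0.996) and the chemokine gene Ccl2 (0.9955). For Il18 they were Sp110 (0.998) and Nmi (0.998), for Il18bp the interferon regulatory factor gene Irf1 (0.998) and Samhd1 (0.997). Il1rap was followed by Yme1l1 (0.992) and Kat2b (0.9915), and Il18rap by Gfi1 (0.957) and Cnot7 (0.955).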

How the data were processed

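RNA from 24 macrophage libraries was captured on oligo-dT beads and sequenced from both ends, per the labels' protocols. The authors deposited counts, whole numbers for each gene and library, with no normalization. STAR, edgeR and the mouse build mm39 are named in the submitters' processing notes. Versions, counting program, strand setting and annotation: not given in the sources used here. Of 56941 gene IDs, 51948 (91.2%) matched a symbol, the Il36 genes through RefSeq synonyms. RefSeq (GRCm38.p6) gave promoter sequences and GENCODE M21 exon lengths, no coordinates of the counts.

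All 24 libraries were fitted together by edgeR's quasi-likelihood method (version 4.0.16, R 4.3.3), with group means, TMM scaling and a filter (minimum count 10, minimum total 15) that kept 14757 genes. Tests are 2-sided, adjusted by Benjamini-Hochberg over all tested genes and called under 0.05. The standard error is the log2 fold change over the square root of F. The fit was tested on simulated data. Intervals for counts would cover counting error only. Library totals ran from 14636058 to 19181707, and counts of libraries within a group differed by more than sampling noise in every pair. Count ratios used exact permutation tests with 0.5 added to each count.

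The members and gene lists were chosen with earlier results of these data known. Named genes are all members, up to 4 called genes per pathway list with the smallest p in WT after LPS, every called pathway gene between genotypes, and the 2 genes with a mean of at least 1 CPM most alike to each member. One gene of a pathway list is not reported here and is left out of its counts. Replicate numbers come from the labels. Deviations of same-numbered libraries from their group means correlated above 0.1 in all 4 numbers for WT with WT LPS (0.113 to 0.15), KO with KO LPS (0.155 to 0.296) and untreated KO with dCIS (0.114 to 0.359). The other pairs of groups missed this cutoff in at least 1 number. For dCIS with dCIS LPS the values ran from 0.0396 to 0.339, with a higher mean (0.176) than for WT with WT LPS (0.132). Alternatives were RLE size factors, no filter, at least 1 CPM in 4 libraries, replicate blocks, compared groups alone, DESeq2 1.42.0 and libraries left out.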

Additional observations from a re-analysis of the deposited data

Results flagged for a closer look

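Of 54 groups of 4 libraries, 9 genes by 6 groups, 4 had a library whose gap to its nearest neighbour was most of the range of the group. Chance gives that in about 1 in 20 groups of normally spread values, a rate that does not hold for small tied counts. Il1a in dCIS after LPS was at 372 CPM in library 1 against 174 to 202 CPM in the other libraries, and the difference of KO from dCIS passed the test without it. The other 3 rest on 6 counts or fewer. Il1r1 was at 0.281 CPM in untreated dCIS library 2, which is 6 counts against 2 in each of the others. Il1r2 was at 0.0968 CPM in untreated KO library 1, which is 2 counts against 1 in each of the others, and at 0 CPM in untreated dCIS library 3 against 1 count in each of the others.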

How the results depend on the processing

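The 7 rises after LPS in each genotype kept their direction and passed the test under every alternative run, which were RLE size factors, no filter, the strict filter, both replicate blocks, the compared groups alone, DESeq2, each library left out in turn and, for dCIS, libraries 3 and 4 left out together. The replicate block within each genotype changed no call of a member. The block over all groups moved the members called from 0 to 1 in untreated KO against WT (Il1rap, 0.40, adjusted p 0.05). In KO against dCIS after LPS it moved them from 0 to 2 (Il1a, 1.08, adjusted p 0.00223, and Il1b, 0.83, adjusted p 0.0413). Same-numbered libraries of these groups missed the cutoff of 0.1 in the check above. For KO LPS with dCIS LPS every same-numbered r was above 0 (0.0287 to 0.153, mean 0.0837, against a mean of -0.0289 for other numbers). The check does not settle whether those libraries were paired. For untreated KO and dCIS, which passed the check, the block changed no call of a member. RLE and DESeq2 each called 1 member in untreated KO against WT and 1 in untreated KO against dCIS, Il1rap in both (log2 0.39 to 0.45). RLE moved the median of all genes by 0.06 on the log2 scale or less. Like TMM, it centres the bulk of genes near no change, so it could not test that assumption. Without the filter, which tested 36121 genes, 2 members were called in dCIS against WT after LPS (Il1a, -0.74, and Il1b, -0.51) and 2 in KO against dCIS after LPS (0.98 and 0.72); the cause was not tested. With 1 library left out the members called ran from 0 to 1 in KO against dCIS, untreated and after LPS.

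The same settings moved counts over all genes by more than 1.5 times. Untreated KO against WT had 1079 calls, 1973 with the block, 2034 with DESeq2, 2351 alone and 90 to 951 with 1 library left out. KO against WT after LPS had 405, and 1038 without the filter, 1058 with the block, 1080 with DESeq2, 1995 alone and 68 to 455. Untreated KO against dCIS had 3147, 1317 alone and 1198 to 4488. KO against dCIS after LPS had 322, and 850, 751, 656 and 82 in the same order and 122 to 1446. The counts for dCIS against WT after LPS were 38, 277, 91, 203, 12 and 16 to 195, and untreated 8, with 80 without the filter, 34 with the block, 19 with DESeq2 and 5 to 9. Without dCIS LPS libraries 3 and 4 there were 6 calls in dCIS against WT after LPS and 62 in KO against dCIS. The LPS responses of KO and dCIS differed from that of WT in 3 and 0 genes, in 12 and 35 without the filter and in 6 and 9 with DESeq2.

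Of the results reported, 29 changed sign under some alternative, and 0 of these had been called. For Il1b in untreated KO against WT the value was -0.0068 without the filter and -0.0026 with the strict filter. Without dCIS LPS libraries 3 and 4, dCIS against WT after LPS was 0.0021 for Il1rn, 0.029 for Il18bp and 0.072 for Il1rap, KO against dCIS -0.078 for Il18bp, and the Il1rap response of dCIS minus WT 0.030. The unread Il1r2 to Il1r1 ratio of dCIS against WT after LPS was -0.015 with 1 added to each count and ran from -0.71 to 0.52 with 1 library left out, the Il1rn to Il1b ratio in untreated KO against WT from -0.26 to 0.42, and the Il18bp to Il18 ratio in dCIS against WT after LPS from -0.042 to 0.069. With 1 library left out, log2 values ran as follows. In untreated KO against WT they were -0.44 to 0.16 for Il18rap, -0.26 to 0.43 for Il1a, -0.53 to 0.45 for Il1b and -0.019 to 0.34 for Il1rn, and after LPS -0.20 to 0.031 for Il18bp and -0.069 to 0.57 for Il18rap. In untreated dCIS against WT they were -0.10 to 0.028 for Il18, -0.38 to 0.12 for Il1a, -0.52 to 0.16 for Il1b and -0.039 to 0.11 for Il1rap, and after LPS -0.024 to 0.62 for Il18rap and -0.12 to 0.019 for Il1rap. In untreated KO against dCIS they were -0.16 to 0.15 for Il18bp, -0.033 to 0.39 for Il18rap, -0.16 to 0.54 for Il1a, -0.24 to 0.49 for Il1b and -0.21 to 0.14 for Il1rn, and after LPS -0.12 to 0.021 for Il18, -0.093 to 0.15 for Il18bp, -0.20 to 0.13 for Il18rap and -0.15 to 0.056 for Il1rn. The response of KO minus that of WT ran from -0.19 to 0.50 for Il1a and -0.24 to 0.73 for Il1b. The pathway genes called between genotypes were rerun under these settings, a choice made after seeing the data; for untreated KO against WT they gave 2 calls, 4 with RLE, 7 with the block over all groups, and for KO against dCIS after LPS 3, 5 with the block and 0 without dCIS libraries 3 and 4. Depth limits Il1r1, Il1r2 and Il18rap.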
